A study of Mus musculus with 108 samples.

Results

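The clustered protocadherin genes of the mouse lie side by side on chromosome 18 and were followed here through the chromatin states of the liver at 3 months, at 12 months and at 12 months under caloric restriction. The members were all RefSeq genes on chromosome 18 whose symbols begin with Pcdha, Pcdhb or Pcdhg, and 58 such genes were found among 26089 genes with a curated transcript, 658 of them on that chromosome. They comprise 12 alpha variable genes (Pcdha1 to Pcdha12), 2 alpha C-type genes (Pcdhac1 and Pcdhac2), 22 beta genes (Pcdhb1 to Pcdhb22), 12 gamma A genes, 7 gamma B genes and 3 gamma C-type genes (Pcdhgc3, Pcdhgc4 and Pcdhgc5). Of these, 57 are annotated as protein coding and Pcdhgb8 as a transcribed pseudogene. All 58 are on the plus strand, and the cluster runs in mm10 from the start of Pcdha1 to the end of the gamma genes (chr18:36930285-37841873), which is 4559 bins of 200 bp.

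Clustered protocadherins are cell surface adhesion proteins that are best known from neurons, where each cell uses its own combination of them as an identity tag for recognising itself. In the alpha and gamma groups every gene has its own large first exon, with its own promoter, which is spliced to constant exons shared by the whole group, whereas the beta genes have no introns. Promoter choice among the variable genes is known to depend on DNA methylation and on looping by CTCF and cohesin, and the C-type genes are the members that are used more uniformly.

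The study profiled H3K4me3, H3K27me3, H3K27ac and H3K4me1 by ChIP-seq in whole livers of female C57BL/6 mice that had been fixed in formalin and embedded in paraffin. SD 3m comprised 8 mice on standard diet at 3 months of age (30 libraries), SD 12m comprised 8 mice on standard diet at 12 months (29 libraries), and CR 12m comprised 9 mice at 12 months of age that received 30% fewer calories from 3 months on (29 libraries). The authors merged all libraries of a group and gave each 200 bp bin 1 of 8 chromatin states, so that every group has 1 segmentation, no difference could be set against the spread between mice, and all comparisons are given as values without a test. Where 3 values are given in a row with no group named, they belong to SD 3m, SD 12m and CR 12m in that order. The merged files held 7, 8 and 5 libraries of H3K4me3, the mark of state 7, and 7, 8 and 6 of H3K27me3, the mark of state 6, and the part of these numbers in the calls was not tested. As the livers were whole, a state present in few cells and a weak state in all cells cannot be told apart.

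In the definitions of the authors, states 1 and 2 are active and flanking transcription start sites (TSS), states 3 and 4 are active enhancers, state 5 is poised enhancers, state 6 carries H3K27me3 alone (repressed Polycomb), and state 8 carries none of the 4 marks (quiescent). State 7 shows weak H3K4me3 with very little H3K27me3, was found by the authors to be enriched in repeats and lamina-associated domains, and was named by them the age-related state. The labels fitted the tissue at the genes that define hepatocytes. All 8 hepatocyte genes examined, among them Alb, Ttr and Hnf4a, had their TSS in states 1 to 5 in all 3 groups. The same held for 14260 of all 26089 genes, and 1722 of them were in state 6 in all 3 groups. Of 6 neuronal genes, 5 (Snap25, Syt1, Neurod1, Pax6 and Tubb3) had it in state 6 in all 3 groups, and Rbfox3 was in state 8 in SD 3m and in state 6 in both 12-month groups.

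State 7 was the commonest marked state of the cluster in each group. It held 31.98%, 55.9% and 46.4% of the bins of the cluster, against 1.89%, 11.4% and 4.15% of the bins of chromosomes 1 to 19 and X. The Wilson 95% limits of the cluster values were 30.6 and 33.4%, 54.5 and 57.4%, and 45.0 and 47.9%, and these count neighbouring bins as independent and say nothing of the mice. The share of state 7 in the cluster was thus 16.95, 4.90 and 11.2 times that of the genome. Chromosome 18 as a whole did not share this level, as state 7 held 1.49%, 6.497% and 2.52% of its bins, those of the cluster included. When the genome was cut into 2816 windows as long as the cluster (911.8 kb), at least as much state 7 as in the cluster was held by 10, 170 and 17 windows.

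**Figure D1:**
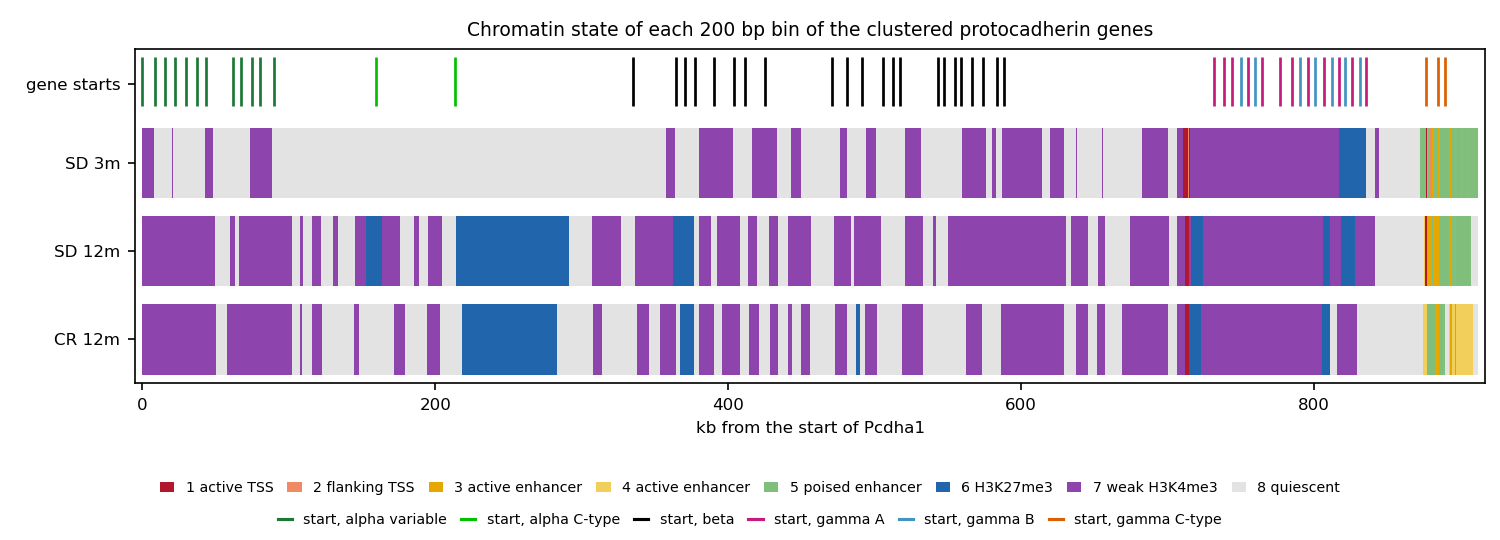
Chromatin state of every 200 bp bin of the cluster in SD 3m, SD 12m and CR 12m, with x as kb from the start of Pcdha1 and the 58 gene starts above, coloured by gene class. The unbroken state 7 stretch over Pcdhga1 to Pcdhgb5 is present in all 3 rows. State 7 lies over 4 of the alpha variable starts in SD 3m and over all 12 in both 12-month rows. The state 6 stretch after Pcdhac2 is seen in the 12-month rows only.

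The remaining bins of the cluster were mostly quiescent. Quiescent state 8 held 61.2%, 26.5% and 39.9% of the cluster. The Polycomb state 6 held 2.02%, 13.7% and 9.94%, against 9.48%, 14.4% and 10.3% of the genome. States 1 to 5 together held 4.83%, 3.84% and 3.71% of the cluster and 22.5%, 22.6% and 22.8% of the genome.

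Compared with SD 3m, 43.5% of the bins of the cluster had another state in SD 12m and 37.9% had one in CR 12m, against 31.9% and 24.2% of the genome. Both comparisons share the SD 3m segmentation. Bins that were quiescent at 3 months took state 7 in 42.6% of cases in SD 12m (15.2% over the genome) and in 29.8% of cases in CR 12m (4.76% over the genome). Bins that held state 7 at 3 months kept it in 89.9% of cases in SD 12m and in 83.3% in CR 12m, where the genome kept 71.7% and 51.8%. Of the state 7 bins of the cluster in CR 12m, 91.5% had that state also in SD 12m, and 76.0% of those of SD 12m were in state 7 in CR 12m. Over the genome these shares were 84.0% and 30.6%.

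The state of the bin that holds the TSS was then read for each member. In SD 3m, 23 of the 58 members had their TSS in state 7, against 1.64% of all genes, and 28 had it in state 8 (29.1% of all genes). In SD 12m, 37 members were in state 7 (3.84% of all genes) and 12 in state 8 (22.9% of all genes). In CR 12m 31 were in state 7 (1.43% of all genes) and 23 in state 8 (27.5% of all genes). A TSS in state 6 was found for 4, 6 and 2 members, against 11.0%, 14.9% and 12.2% of all genes. The TSS was in state 7 in all 3 groups for 18 members, against 0.448% of all genes.

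The number of members that differed in TSS state from SD 3m was not far from that of other genes. It was 23 of 58 in SD 12m (32.6% of all genes) and 20 of 58 in CR 12m (34.7% of all genes). What those members did was less common over all genes. From state 8 to state 7 went 15 members in SD 12m (2.35% of all genes) and 9 in CR 12m (0.763% of all genes). It was not particular to the cluster, as 259 of 1107 olfactory receptor genes did so in SD 12m and 79 in CR 12m. Of the olfactory receptor genes, 39.6% and 20.1% had another TSS state than in SD 3m in SD 12m and CR 12m. Neighbouring members share stretches of state, so the members do not count as independent observations.

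The 12 alpha variable genes, whose first exons are 2382 to 2513 bp long and encode the extracellular domains of the alpha proteins, differed from 3 to 12 months at 8 TSS under either diet. In SD 3m the TSS of Pcdha1, Pcdha7, Pcdha10 and Pcdha11 were in state 7 and those of the other 8 (Pcdha2 to Pcdha6, Pcdha8, Pcdha9 and Pcdha12) in state 8. In SD 12m all 12 were in state 7, and in CR 12m all 12 were in state 7. The first exons followed the TSS, as those 4 were wholly in state 7 and the other 8 held none of it in SD 3m. In SD 12m 11 first exons were wholly in state 7 and that of Pcdha8 held 53.8% of it, and in CR 12m all 12 were wholly in state 7.

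In SD 3m, state 7 lay over the alpha variable genes in separate stretches, of which that at Pcdha1 reached 8.0 kb into the cluster, that at Pcdha7 spanned 6.0 kb, that at Pcdha10 and Pcdha11 spanned 14.8 kb, and another of 1.0 kb lay between Pcdha3 and Pcdha4. In SD 12m Pcdha1 to Pcdha7 stood in 1 unbroken stretch of state 7, 50 kb of which lay in the cluster, and Pcdha9 to Pcdha12 in another of 35.8 kb. In CR 12m the corresponding stretches covered 50.4 kb inside the cluster (Pcdha1 to Pcdha7) and 43.8 kb (Pcdha8 to Pcdha12). The array from the start of Pcdha1 to the end of the first exon of Pcdha12 held 32.2%, 86.2% and 91.6% of state 7. In this array 94.6% of bins had the same state in SD 12m and CR 12m, against 76.95% over the whole cluster and 75.4% over the genome.

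State 7 did not stop at the first member. The stretch that contained the start of Pcdha1 began 67, 66.4 and 67.4 kb before the cluster. It covered the transcribed pseudogene Gm6756, the nearest gene on that side, which had its TSS in state 7 in all 3 groups. Of the other 18 genes in the 500 kb before the cluster, 17, 18 and 18 had their TSS in states 1 to 5.

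**Figure D2:**
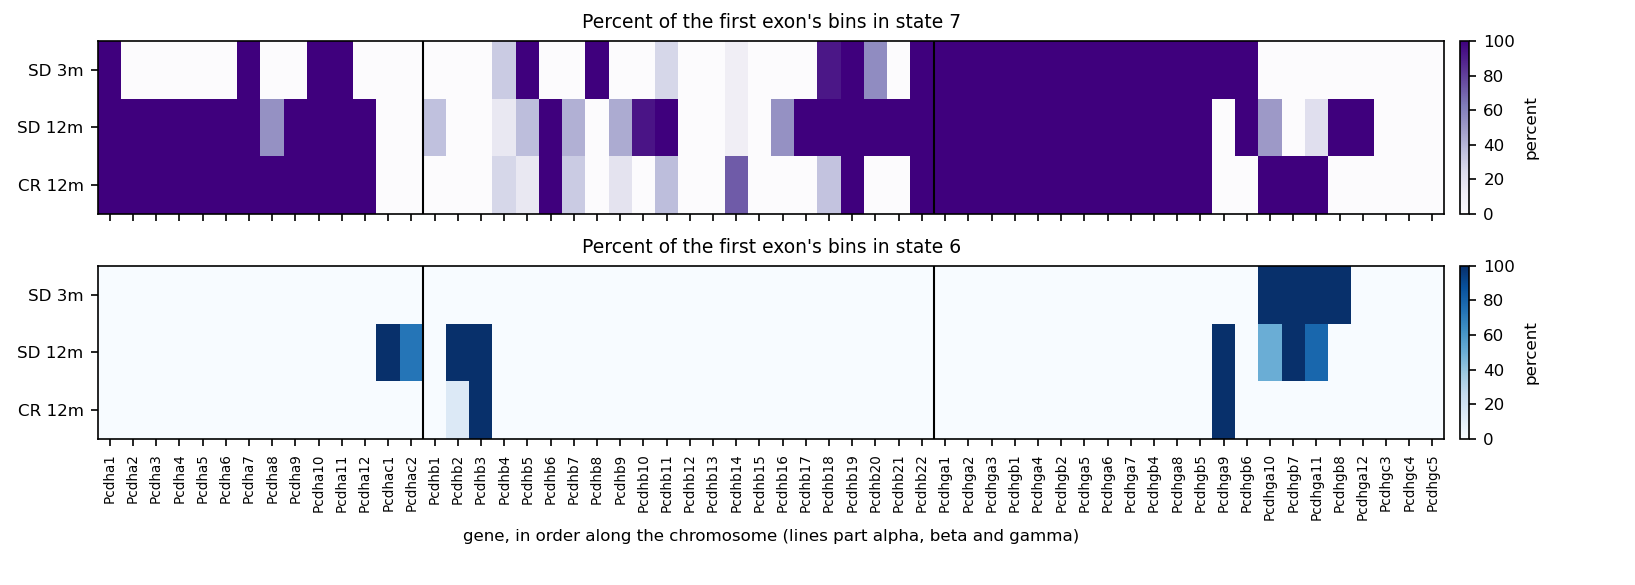
Percent of the bins of each member's first exon in state 7 (upper panel) and state 6 (lower panel), with the 58 genes in chromosomal order on x and the 3 groups as rows. The alpha variable genes go from 4 to 12 filled cells between SD 3m and CR 12m, whereas Pcdhga1 to Pcdhgb5 are filled in every row.

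The alpha C-type genes did not follow the variable ones. The TSS of Pcdhac1 was in states 8, 6 and 8, and its first exon was wholly in state 6 in SD 12m and held none of it in the other groups. The TSS of Pcdhac2 was in state 8 in all 3 groups, while its first exon held 73.3% of state 6 in SD 12m and none in SD 3m or CR 12m. State 7 was absent from both first exons in each group.

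Shortly after the TSS of Pcdhac2, both 12-month groups had a long Polycomb stretch that SD 3m lacked. It spanned 77.4 kb in SD 12m (chr18:37144401-37221800) and 65.0 kb in CR 12m (chr18:37148201-37213200), and was the longest state 6 stretch of the cluster in each. In SD 3m the same region was part of an unbroken state 8 stretch of 269.0 kb, the longest of the cluster, which ran over Pcdha12, both alpha C-type genes and Pcdhb1. From the start of Pcdhac2 to the end of the alpha genes, state 6 held 98.2% of bins in SD 12m, 89.9% in CR 12m and 0% in SD 3m. The 3 alpha constant exons, which encode the cytoplasmic part that all alpha proteins share, were in state 8 in SD 3m and in state 6 in SD 12m and CR 12m. The Polycomb stretch went on past the last alpha exon, so that state 6 also held 43.3% and 32.02% of the bins between the alpha end and Pcdhb1 in SD 12m and CR 12m.

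The 22 beta genes have 1 exon of 2340 to 5271 bp each and encode proteins without that shared cytoplasmic part. Their states were mixed, and 14 of the 22 had the same TSS state in both 12-month groups. In SD 3m the TSS of Pcdhb5, Pcdhb8, Pcdhb19, Pcdhb20 and Pcdhb22 were in state 7 and the other 17 in state 8. In SD 12m state 7 held 9 of them, state 6 held 2 and state 8 held 11, while in CR 12m state 7 held 4, state 6 held 1 and state 8 held 17. Of the beta genes, only Pcdhb19 and Pcdhb22 were in state 7 in all 3 groups, and their exons were wholly in that state each time. A TSS in state 8 in all 3 groups was found for 9 beta genes, namely Pcdhb1, Pcdhb4, Pcdhb7, Pcdhb9 and Pcdhb12 to Pcdhb16.

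The beta genes that changed did so in several directions. Pcdhb6 was quiescent in SD 3m and in state 7 in both 12-month groups. Pcdhb10, Pcdhb11, Pcdhb17, Pcdhb18 and Pcdhb21 went from state 8 to state 7 in SD 12m and were in state 8 in CR 12m, and Pcdhb20 was in state 7 in SD 3m and SD 12m and in state 8 in CR 12m. Pcdhb5 went from state 7 to state 8 in SD 12m and was in state 7 in CR 12m at its TSS, while its exon held 100%, 36.8% and 15.8% of state 7. Pcdhb8 went from state 7 to state 8 in both groups, and its exon held 100% of state 7 in SD 3m and none afterwards. Pcdhb3 went from state 8 to state 6 in both groups with its whole exon, whereas Pcdhb2 did so in SD 12m and had 13.3% of its exon in state 6 in CR 12m with its TSS in state 8.

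Summed over the beta exons, state 7 held 30.1%, 53.7% and 26.6% of bins. Between the exons of the same array it held 43.7%, 68.9% and 50.2%, which was more than in the exons in each group. The same was seen around the starts. At the TSS bin, 22.7%, 40.9% and 18.2% of the beta genes were in state 7, and at 5 kb downstream, past the end of most beta exons, 50%, 72.7% and 50% were. No such dip at the start was seen in the alpha variable genes, where 33.3%, 100% and 100% of TSS bins and 33.3%, 100% and 100% of bins at 5 kb downstream were in state 7. Of the gamma A and B genes, 73.7%, 84.2% and 78.9% had the TSS bin in state 7, and 68.4%, 89.5% and 73.7% the bin at 5 kb downstream. The distance between members is short, so the bins downstream of a gene may lie at the next one.

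**Figure D3:**
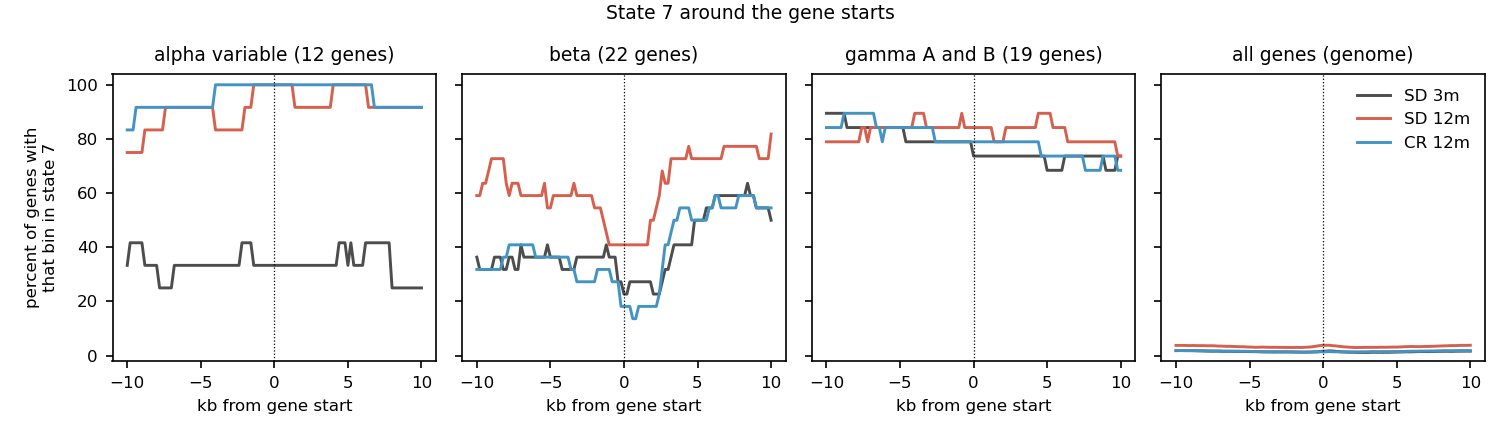
Percent of genes whose bin at a given distance from the start (x, kb, along the gene) is in state 7, for the alpha variable, beta, and gamma A and B genes and for all 26089 genes, with 1 line for each group. The beta lines lie lower at the start than at 5 kb after it, the alpha line of SD 3m lies below those of both 12-month groups, and the lines of all genes stay under 5%.

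Of the 19 gamma A and B genes, 14 had their TSS in state 7 already at 3 months. The TSS of the first 12 in chromosomal order (Pcdhga1 to Pcdhgb5) were in state 7 in all 3 groups, and each of their first exons was wholly in state 7 each time. In SD 3m they lay in an unbroken state 7 stretch of 101.8 kb, the longest of the cluster. It ran from after Taf7 to Pcdhgb6 (chr18:37645201-37747000). The same 12 genes lay in unbroken stretches of 81.6 kb in SD 12m and 82.6 kb in CR 12m. The longest state 7 stretches of the genome were longer, with 171.6, 284.6 and 211.4 kb. The array from Pcdhga1 to the first exon of Pcdhga12 held 79.8%, 86.5% and 81.7% of state 7.

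The last 7 of the gamma A and B genes differed among the groups. In SD 3m a Polycomb stretch of 18.4 kb (chr18:37747001-37765400), the only state 6 stretch of the cluster at that age, held the TSS of Pcdhga10, Pcdhgb7, Pcdhga11 and Pcdhgb8 and all of their first exons. In SD 12m Pcdhgb7 and Pcdhga11 were still in state 6 and Pcdhga10 and Pcdhgb8 were in state 7. In CR 12m Pcdhga10, Pcdhgb7 and Pcdhga11 were in state 7 and Pcdhgb8 in state 8. Pcdhga9 went the other way, being in state 7 at 3 months and in state 6 in both 12-month groups, each time with its whole first exon. Pcdhgb6 was in state 7 in SD 3m and SD 12m and in state 8 in CR 12m, and Pcdhga12, the last gene of the array, was in states 8, 7 and 8.

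Just before the gamma array, state 6 stretches of 8.4 kb in SD 12m and 7.8 kb in CR 12m stood between Taf7 and Pcdhga1, where SD 3m had state 7. Over the whole cluster the state 6 stretches numbered 1, 6 and 5, with 18.4, 125.2 and 90.6 kb in total. The state 7 stretches numbered 21, 30 and 27, with 291.6, 510.0 and 423.2 kb in total and medians of 7.4, 10.6 and 8.2 kb. Over the genome the median state 7 stretches were 3.0, 6.2 and 4.2 kb.

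The gamma C-type genes were the members with marks of active chromatin. The TSS of Pcdhgc3 was in states 2, 2 and 1, and that of Pcdhgc4 was in state 3 each time. The TSS of Pcdhgc5 was in poised state 5 in SD 3m and SD 12m and in state 8 in CR 12m. The first exons of Pcdhgc3 and Pcdhgc4 were wholly in states 1 to 5 in each group, and that of Pcdhgc5 was so in SD 3m and SD 12m and held none of these states in CR 12m.

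From the start of Pcdhgc3 to the end of the cluster, which takes in the 3 gamma constant exons, states 1 to 5 held 100%, 86.5% and 82.6% of bins. The makeup of this part differed more. Poised state 5 held 70.2%, 53.9% and 25.3% of its bins, active enhancer state 4 held 0%, 0% and 40.4%, and active enhancer state 3 held 18.5%, 26.97% and 14.6%. SD 12m and CR 12m had the same state in 33.7% of its bins, the lowest value among the regions of the cluster. The first gamma constant exon was in states 2, 3 and 4, the second in states 5, 5 and 4, and the third in states 5, 8 and 8.

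**Figure D4:**
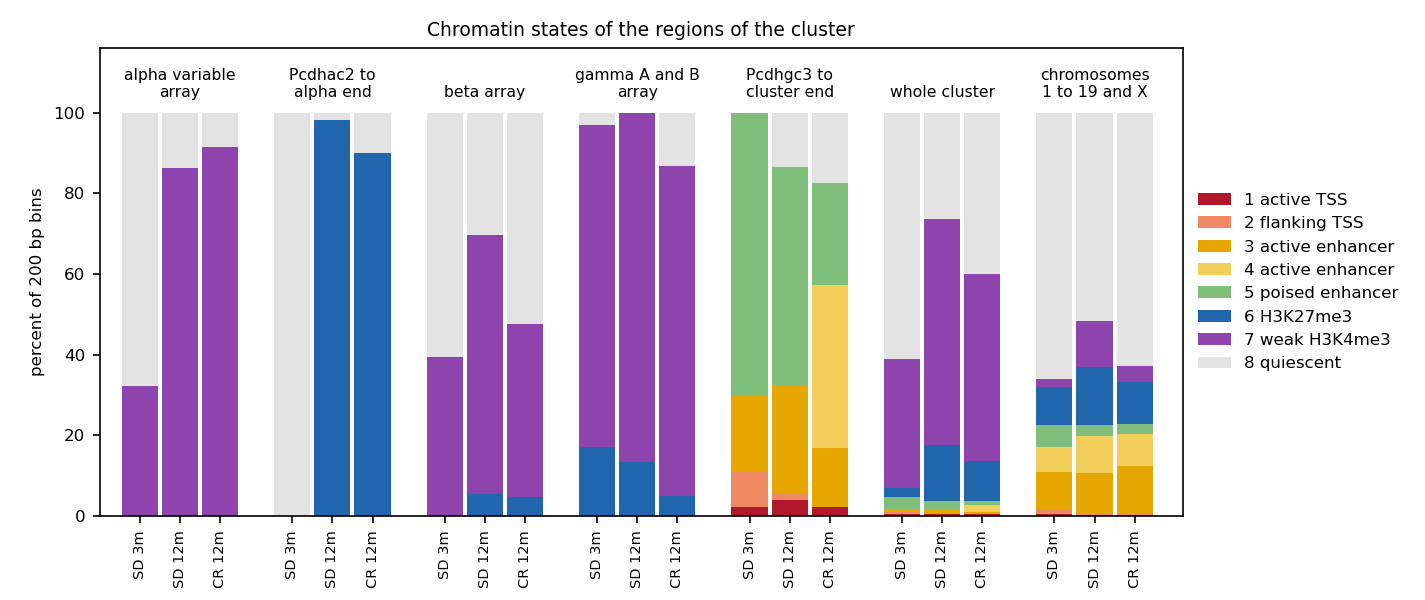
Percent of 200 bp bins in each of the 8 states (stacked bars) in SD 3m, SD 12m and CR 12m for 5 regions of the cluster, the whole cluster and chromosomes 1 to 19 and X. State 7 fills 79.8 to 86.5% of the gamma A and B array in each group, state 6 fills 98.2 and 89.9% of the region after Pcdhac2 at 12 months, and states 1 to 5 prevail only after Pcdhgc3.

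The genes that lie inside the cluster without being protocadherins were compared with the members. Taf7, which encodes a subunit of the general transcription factor TFIID and stands between the beta and gamma genes, had its TSS in state 1 in all 3 groups, in a stretch of states 1 and 2 of 4.8 kb in SD 3m and of state 1 alone of 3.2 kb in SD 12m and 2.6 kb in CR 12m. Slc25a2, a mitochondrial carrier gene next to it, was in state 7 in all 3 groups, as were Pcdhb22 and Pcdhga1, the members on either side. The 3 read-through models Gm37013, Gm38666 and Gm38667, which span from the alpha to the gamma genes, were in states 8, 8 and 7 in SD 3m and all in state 7 at 12 months. Their starts lie in the same bins as those of Pcdha4, Pcdha6 and Pcdha7, so they repeat the states of these members and add no separate observation. Diaph1, the nearest gene after the cluster, was in state 1 in SD 3m and SD 12m and in state 3 in CR 12m. State 7 held 0% of the 500 kb after the cluster in each group, against 16.9%, 17.5% and 17.3% of the 500 kb before it.

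First exons of members differ from the DNA between them in sequence. Over the alpha variable array the first exons had 4.63 CpG per 100 bp and 52.3% GC, against 1 CpG per 100 bp and 37.3% GC between them. Over the gamma A and B array the values were 3.76 CpG per 100 bp and 51.3% GC in the first exons and 0.85 CpG per 100 bp and 38.9% GC between them. The beta exons had 2.12 CpG per 100 bp and 46.1% GC. State 7 did not keep to the first exons, as it held 33.3% of the alpha first exon bins and 31.6% of the bins between them in SD 3m, and 73.5% and 86.0% in the gamma A and B array. In CR 12m it held 100% and 87.3% in the alpha array, and 78.4% and 84.9% in the gamma A and B array.

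Repeat bases were less frequent in the state 7 bins of the cluster than in those of the genome. Repeats made up 29.3%, 35.4% and 34.1% of the bases of these bins, against 44.9%, 40.5% and 42.6% of the state 7 bins of the genome. In the state 8 bins of the cluster they made up 46.4%, 58.5% and 49.8%. The state 7 bins of the cluster also had more CpG, with 1.29, 1.23 and 1.28 per 100 bp against 0.702, 0.520 and 0.567 per 100 bp in those of the genome.

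The members resemble each other in sequence, which bears on how many reads can be placed. Of the 50-base starts in the cluster, 85.9% were unique in the genome, 50 bases being the read length and reads without a best position having been removed by the authors. In the first exons the share was 74.9 to 90.5% for the alpha variable genes, 82.8 to 97.4% for gamma B, 96.1 to 100% for gamma A and 88.8 to 100% for beta. It was 80.1% in the state 8 bins and 94.4% in the state 7 bins of SD 3m, 65.4% and 91.6% in those of SD 12m, and 74.7% and 91.9% in those of CR 12m. The part of read placement in the calls of state 8 was not tested. In bins in which at least 90% of these starts are unique, state 7 held 36.5%, 60.1% and 50.7% of the cluster.

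Other gene families were set beside the members to see where the cluster differed. Of the 12 non-clustered protocadherins, which are spread over several chromosomes, 1, 1 and 0 had their TSS in state 7 and 4, 7 and 5 in state 6. Pcdh18 went from state 7 to state 8 in both 12-month groups and Pcdh8 from state 8 to state 6 in both. Pcdh7, Pcdh9 and Pcdh15 went from state 8 to state 6 in SD 12m and were in state 8 in CR 12m. Pcdh17 was in state 6, 7 and 6, and Pcdh1, which lies on chromosome 18 after the cluster, in state 1, 1 and 2. The remaining 5, among them Pcdh10 and Pcdh19 in state 6, had the same state in all 3 groups.

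Of 22 cadherin genes (symbols Cdh and a number up to 24), 0, 3 and 0 were in state 7 and 1, 7 and 6 in state 6. Of 1107 olfactory receptor genes, which like the protocadherins are used selectively by neurons, 19 (1.72%), 270 (24.4%) and 86 (7.77%) were in state 7. Of 39 Hox genes, a reference for Polycomb, 30, 33 and 31 were in state 6 and 1, 1 and 0 in state 7. The clustered protocadherins had 39.7%, 63.8% and 53.4% of TSS in state 7 and 6.90%, 10.3% and 3.45% in state 6. The olfactory receptors had 9.94%, 22.3% and 14.2% of TSS in state 6. The members thus stood above each of these families in state 7 in each group. In state 6 they stood below the non-clustered protocadherins, olfactory receptors and Hox genes in each group, and below the cadherins at 12 months only.

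**Figure D5:**
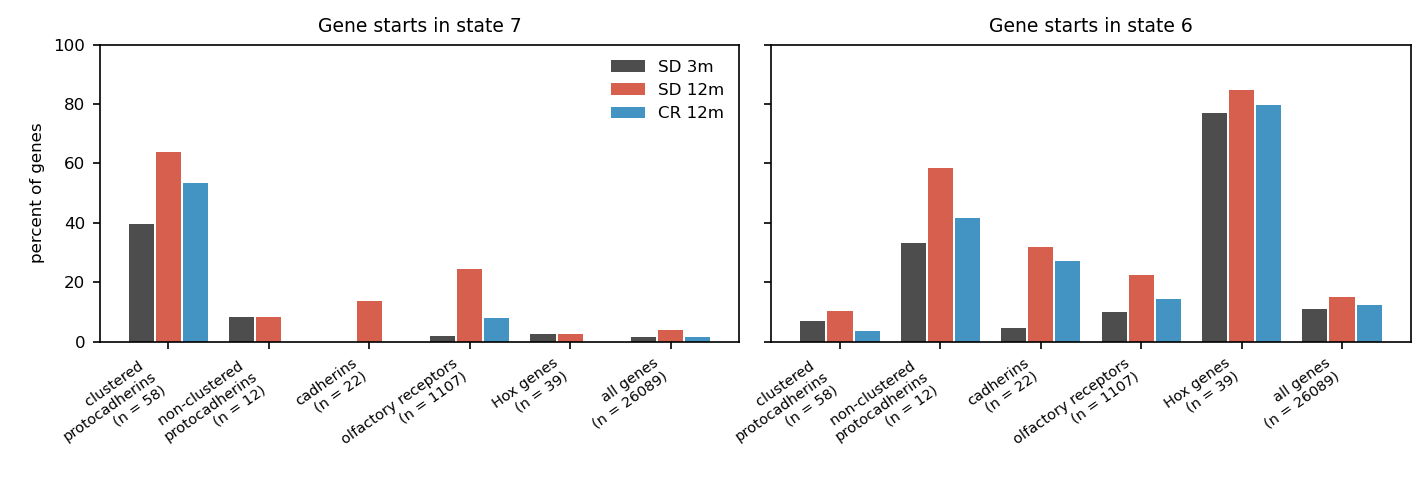
Percent of genes with their TSS in state 7 (left) and state 6 (right) in SD 3m, SD 12m and CR 12m, for the clustered protocadherins, 4 other gene families and all genes, with the number of genes in parentheses. Bars start at 0, and the clustered protocadherins have the highest bars for state 7 in each group, from 39.7 to 63.8%.

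Of the gene body, state 6 held a median over the members of 0%, 8.45% and 1.497%, and a median over all genes of 0% in each group. The bodies of alpha and gamma genes overlap, because they end at the same constant exons, so these medians mostly count the same bins several times. With each bin of the gene bodies counted once, state 6 held 3.54%, 14.8% and 9.74%.

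Genes chosen as possible regulators of the clusters mostly had active states. Examined were 24 such genes, whose action on the clusters was not tested (CTCF, cohesin, DNA methylation, H3K9 methylation and Polycomb factors, with Rest and Smchd1). Of these, 23 had their TSS in states 1 to 5 in SD 3m and 24 in both 12-month groups. Of all 26089 genes, 15190, 15221 and 15371 had it there. The same state in all 3 groups was found for 15 of the 24, against 14457 of all genes. Rest, a repressor of neuronal genes, was in state 7 in SD 3m and in state 4 at 12 months. Ctcf was in states 4, 4 and 1, and the cohesin genes Smc3 and Stag1 were in states 1, 4 and 1 and in states 4, 1 and 1. The DNA methyltransferase gene Dnmt3b, the H3K9 methyltransferase gene Setdb1 and Wiz were in state 1 in SD 3m and in state 4 in both 12-month groups. The Polycomb gene Ezh1 was in states 2, 3 and 3, and the H3K27 demethylase gene Kdm6b in states 1, 1 and 5. Of the cytoplasmic partners, Ptk2 was in state 1, Ptk2b in state 3 and Ret in state 6 in all 3 groups.

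Markers of other liver cells also differed among the groups, with the exception of Clec4f and Cd68 of Kupffer cells. The same state in all 3 groups was held by 14457 of all 26089 genes and by 5 of the 8 hepatocyte genes. Cd68 was in state 3 in all 3 groups. Clec4f was in Polycomb state 6 in all 3 groups, as were most of the neuronal genes. Kdr of endothelial cells was in states 7, 5 and 4, Stab2 in states 4, 7 and 4 and Pecam1 in states 2, 3 and 3. Dcn of stellate cells was in states 1, 6 and 6, Des in states 8, 6 and 6 and Lrat in states 8, 6 and 8. Krt19 of cholangiocytes was in states 8, 8 and 4, Sox9 in states 7, 4 and 1 and Epcam in states 4, 4 and 8, and Adgre1 of Kupffer cells was in states 5, 6 and 8. Of the hepatocyte genes, Apoa1, Ttr and Cyp2e1 moved among states 1 to 4. The part of cell makeup in the differences at the protocadherins was not tested.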

How the data were processed

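ChIP-seq libraries of 4 histone marks were assigned to groups by the diet and age in the sample labels. The authors aligned 50 bp reads to mm10 with BWA 0.6.2-r126, removed duplicates and reads without a unique best position with SAMtools 0.1.18, merged libraries by group and mark, binarized them in 200 bp bins and trained 1 ChromHMM model of 8 states, of which they deposited the state label of each bin. A label is not a signal, and the read depth behind it is unknown. The bins (13168874 in each of 3 segmentations) were read as deposited, without a filter, while SD 6m was not analysed here. TSS, exons and genes came from the longest curated RefSeq transcript in GRCm38.p6, the assembly of mm10, in which each member has 1 transcript, and repeats are its lower case bases. Shares are percents of bins or genes, computed in Python 3.11.15 with numpy 2.4.6, pandas 2.3.3 and scipy 1.17.1 and drawn with matplotlib 3.10.9. The counting functions were tested on simulated segmentations. No test was run, since each group has 1 segmentation. Members, lists and alternatives were chosen with earlier results of these data known. Named members were the ends of each class, the C-type genes and those whose state differed within the class or among groups. Alternatives were other sets of bins, merged states, 1 kb windows, other readings of the TSS and leaving out alpha, beta or gamma. 1 item of the lists is not reported here.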

Additional observations from a re-analysis of the deposited data

Results flagged for a closer look

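In a few places of the cluster the share of state 7 was above that of SD 3m in one 12-month group and below it in the other. These differences were not tested, as each group has 1 segmentation, and they were found by looking over all 58 first exons and the regions of the cluster. The exon of Pcdhb20 held 55.6%, 100% and 0% of state 7 in the order SD 3m, SD 12m, CR 12m, so that CR 12m minus SD 12m was -100 percentage points. The exon of Pcdhb18 held 92.3%, 100% and 34.6%, a difference of -65.4 points. Over all beta exons together the values were 30.1%, 53.7% and 26.6%, a difference of -27.1 points. Between Pcdhga12 and Pcdhgc3, state 7 held 7.33%, 8.38% and 0%, a difference of -8.38 points. Between the first exons of the gamma A and B array it held 86.0%, 90.04% and 84.9%, a difference of -5.17 points.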

How the results depend on the processing

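With 1 segmentation per group, depth unknown and libraries of a group merged by the authors, values were not set against the spread between mice. No paired analysis was possible because the files hold no value of a single library. The numbers per class were stable under other readings of the TSS. Whether the state was read 1 bin up or downstream, as the commonest within 1 kb, over all transcripts, in merged classes or over most of the first exon, the counts of alpha variable, beta, and gamma A and B genes in state 7 stayed within 1.5 times the reported ones in all 54 cases. The readings over all transcripts and in merged classes could not alter these counts. Each member has 1 transcript, and merging leaves state 7 as it is. Of 220 values under alternatives, 63 lay outside the limits set for them, mostly shares that moved when bins were left out. Values fixed in this way are among the 220. A share was taken as moved when it left the Wilson 95% limits of the reported one.

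Among bins with at most 50% repeat bases, state 6 held 2.68%, 17.7% and 12.2% of the cluster in SD 3m, SD 12m and CR 12m, state 7 held 37.5%, 59.2% and 49.9%, and 46.9% and 41.8% of bins had another state than in SD 3m in SD 12m and CR 12m. With the cluster widened by 100 kb on each side, state 6 held 11.3% and 8.15% in SD 12m and CR 12m, state 7 held 33.4% in SD 3m and 53.4% in SD 12m, and 38.1% and 33.9% of bins had changed. Away from state boundaries of SD 3m by more than 1 kb, state 6 held 15.3% and 11.1% in SD 12m and CR 12m, and 36.1% of bins had changed in CR 12m. In 5 merged classes 35.6% had changed in CR 12m. Without alpha, state 6 held 2.82%, 10.7% and 7.63%, state 7 held 40.1% in SD 3m and 57.6% in SD 12m, and 36.4% and 32.5% of bins had changed. Without beta, state 6 held 2.81%, 16.9% and 11.9%, state 7 held 29.1% in SD 3m and 52.7% in SD 12m, and 41.0% had changed in CR 12m. Without gamma, state 6 held 0%, 15.1% and 11.6%, state 7 held 27.8% in SD 3m, and 48.8% had changed in SD 12m.

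Leaving out a class lowers the counts of members by construction. Without gamma, 9, 21 and 16 members had their TSS in state 7 and 0, 3 and 1 in state 6 in SD 3m, SD 12m and CR 12m, and 12 had changed in CR 12m. Without alpha, 19 were in state 7 in CR 12m, and 14 and 12 had changed in SD 12m and CR 12m. Without beta, 1 was in state 6 in CR 12m and 13 had changed in SD 12m.

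Bins outside genes that are not members came to only 22.4 kb at the start of the alpha array, because the 3 read-through models span the rest. There state 6 held 0% in each group, state 7 held 40.2%, 100% and 100%, and 59.8% of bins had changed in both 12-month groups. An alternative that ignores these models, and all those on state 7 or on unique bases, were chosen after seeing the data, and the former left each share within its limits. In bins with at least 90% unique 50-base starts, state 7 held 36.5%, 60.1% and 50.7%, state 6 held 17.2% in SD 12m and 12.3% in CR 12m, and 47.7% and 42.0% of bins had changed. Apart from the bins before the first read-through model, the order of SD 12m, CR 12m and SD 3m in the share of state 7 was the same under each of these alternatives.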
